A study of Mus musculus with 16 samples.

Results

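The genes described here are the pericyte markers Cspg4, Notch3, Mcam and Abcc9, and Rgs2, Rgs4, Rgs5 and Rgs16. The last 4 encode regulators of G protein signalling (RGS), and of these Rgs5 is also read as a pericyte marker. Pericytes are mural cells, the cells that wrap small vessels. The 8 genes were chosen by name with earlier results of these data known. Each was found on the array by 1 probe whose transcript maps to its symbol. These 8 are among 15395 genes whose probe passed the filter on dim signals and entered the tests, and each of the 8 passed that filter. RNA came from primary lung fibroblasts of female mice aged 8 weeks, and was hybridised to Agilent single-colour mouse arrays, 1 array per sample. The 16 arrays form 4 groups of 4: Meflin knockout (KO) cells given recombinant TGF-β1 at 5 ng/ml for 48 hours, KO cells given vehicle for 48 hours, wild type (WT) C57BL/6J cells given the same dose of TGF-β1 for 48 hours, and WT cells given vehicle. Meflin is the protein encoded by Islr, a glycosylphosphatidylinositol-anchored surface protein of mesenchymal cells. The labels count 4 independent experiments per group and do not say how many mice gave cells, nor whether the KO mice share the C57BL/6J background.

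Pericytes are mural cells of capillaries and small venules, and they share a platelet-derived growth factor receptor, contractile proteins and a matrix-making ability with fibroblasts. No single gene marks them: each of the markers here is also made by other cells, such as smooth muscle, glial precursors or endothelium. RGS proteins speed up the hydrolysis of GTP by the α subunit of heterotrimeric G proteins and so shorten the signal from receptors for angiotensin, endothelin, adrenaline and chemokines. Rgs2, Rgs4, Rgs5 and Rgs16 belong to the R4 branch of that family, whose proteins are small, and Rgs5 is widely used as a pericyte marker. TGF-β1 turns fibroblasts toward a contractile, matrix-making state.

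Signals are given as log2 of the scaled array signal, in which a step of 1 is a doubling. Because probes differ in brightness, a level can be compared between groups for 1 gene but not between genes. Differences come with the standard error (SE) of a limma model fitted over all 15395 genes and the 16 arrays. A gene was called changed at a Benjamini-Hochberg adjusted p under 0.05. Islr itself gave no signal well above background on the 8 KO arrays, and was at least 139-fold lower in KO than in WT cells under vehicle (adjusted p = 1.60e-19), although its probe may lie outside the deleted part. Between 31322 and 35472 probes per array were well above background, and replicates of a group correlated with a lowest r of 0.996 over tested genes. The arrays lay on 2 slides, each with 2 arrays of every group. All 12 fibroblast markers listed were tested, and 11 of them were well above background on every array of KO cells under TGF-β1 and 12 in each other group. All 12 endothelial markers and 9 of 10 macrophage and leukocyte markers were measured as well, so the cultures held transcripts of other cell types. TGF-β1 raised 3 and lowered 8 of the fibroblast markers in KO cells and raised 5 and lowered 7 in WT cells. Among all genes, 46.6% were called higher and 35.9% lower in KO cells, and 41.3% and 27.3% in WT cells. Response counts of every list below stand beside these shares. Of 9 epithelial markers 6 were tested, and 3 rose and 2 fell in each genotype. In RNA of a whole culture, fewer cells of a type and less RNA per cell cannot be told apart.

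The pericyte markers did not move as 1 group. In KO cells TGF-β1 raised Cspg4 and Rgs5, lowered Notch3 and Abcc9, and left Mcam without a called difference with the scaling used here. Under quantile normalization the Mcam difference in KO cells was -0.50 (adjusted p = 2.1e-09). In the RGS genes TGF-β1 raised Rgs4, Rgs5 and Rgs16 and lowered Rgs2. Altogether 7 of the 8 genes were called in KO cells, where 82.6% of all genes tested were called. Of the 8, 4 were higher (46.6% of all genes) and 3 lower (35.9%). At 2-fold or more, 6 of the 8 were called, against 23.1% of all genes. In WT cells 6 of the 8 were called, against 68.6% of all genes, with 2 higher (41.3%) and 4 lower (27.3%). Of these calls, the Mcam rise turned to a fall under quantile normalization and the Rgs4 fall lay near the threshold and was not stable, as given below. In WT cells 1 of the 8, Abcc9, reached 2-fold, against 9.71%. The median difference of the 8 genes was 0.62 in KO and -0.43 in WT cells, where the medians of all genes were 0.10 and 0.08. The KO median is the midpoint between Mcam at -0.02 and Rgs5 at 1.27, with none of the genes between them, and is not a shared shift. The response of KO cells minus that of WT cells, the interaction, was called for 7 of the 8, against 58.3% of all genes. It was positive for 4 (31.9% of all genes) and negative for 3 (26.5%), and 4 of the 8, Cspg4, Rgs4, Rgs5 and Abcc9, passed at 2-fold or more, against 9.96%. With normexp background correction, whose offset draws dim signals together, the 2-fold counts were 5 for the KO response, 0 for the WT response and 2, Cspg4 and Rgs4, for the interaction. Rgs4 and Rgs5 passed the filter on dim signals only through treated KO cells, the group where they are high. Requiring signal on all 16 arrays leaves 5 of the 8 genes. The 2-fold counts were then 3 for the KO response, 0 for the WT response and 1, Cspg4, for the interaction. The shares of all genes are large, so the number of calls by itself says little about these genes, and their sizes are given below. Since the 8 genes were chosen with earlier results of these data known, the counts beside the shares are descriptions only.

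**Figure D1:**
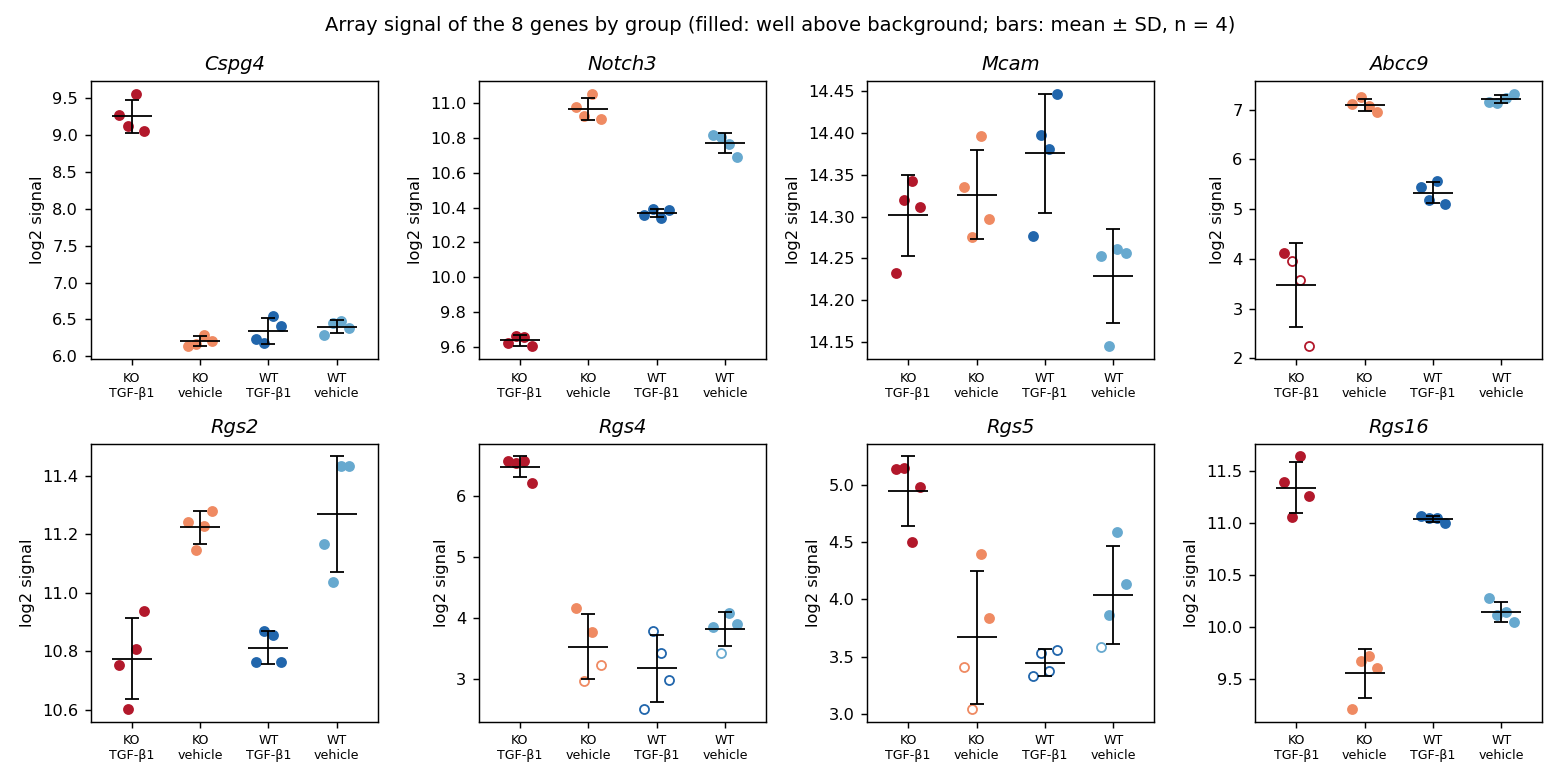
Log2 array signal (vertical axis, its own range in each panel) of the 8 genes on each of the 16 arrays, by group. Points are arrays, filled where the probe was well above background and open where it was not, and bars are the mean ± SD of 4 arrays. Cspg4 and Rgs4 stand high in TGF-β1-treated KO cells alone among the groups, Abcc9 is lowest there, and Mcam spans 14.14 to 14.45 over the 16 arrays.

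Cspg4 encodes NG2, a membrane chondroitin sulfate proteoglycan that binds collagen VI and growth factors and marks pericytes, smooth muscle cells and glial precursors. Of the 8 genes it had the response with the smallest adjusted p for a rise in KO cells. Its promoter is shown because it had the smallest adjusted p of the 8 for a difference in response between genotypes. The 250 bases before the transcription start, from RefSeq on GRCm38.p6, lie at chr9:56864854-56865103 on the plus strand, and capitals mark the letters CAGAC, a SMAD element, or their complement GTCTG.
Cspg4: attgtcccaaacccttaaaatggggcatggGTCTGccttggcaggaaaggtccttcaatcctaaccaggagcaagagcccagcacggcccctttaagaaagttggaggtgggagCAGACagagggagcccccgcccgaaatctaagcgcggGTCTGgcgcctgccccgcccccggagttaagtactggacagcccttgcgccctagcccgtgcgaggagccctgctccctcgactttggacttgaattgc

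Cspg4 had log2 signals of 9.28, 9.13, 9.56 and 9.06 in TGF-β1-treated KO cells, against 6.14, 6.17, 6.29 and 6.20 in vehicle-treated KO cells. In WT cells it had 6.23, 6.18, 6.55 and 6.41 with TGF-β1, against 6.29, 6.45, 6.49 and 6.38 with vehicle. The 4 treated KO arrays lay far above the other 12, and the other 3 groups overlapped one another. In KO cells the rise was 3.05 ± 0.10 (SE, n = 4 per group, adjusted p = 3.80e-13), a fold of 8.31. In WT cells the difference was -0.06 ± 0.10 (adjusted p = 0.619), with a 95% interval of -0.28 to 0.16, and its sign turned under quantile normalization, with normexp background correction and in the authors' deposited values. The interaction was 3.11 ± 0.14 (adjusted p = 1.46e-10), higher than 99.9% of all genes tested. Under vehicle, KO minus WT was -0.20 ± 0.10 (adjusted p = 0.217). Under TGF-β1 it was 2.91 ± 0.10 (adjusted p = 2.26e-12), or 7.54-fold. The interaction was 3.21 within the first slide and 3.01 within the second.

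Cspg4 and Islr are both on chromosome 9, and the RefSeq gene order places 31 coding genes between them. Of these, 26 were tested. Under vehicle 0 of the 26 were higher and 2 lower in KO than in WT cells in the limma fit (1 higher at an unadjusted p under 0.05). The shares of all genes were 7.06% and 6.16%. Under TGF-β1 10 were higher and 5 lower, against 39.7% and 30.5% of all genes. At 2-fold or more there were 2, against 10.3% of all genes. Whether the position of Cspg4 near the targeted locus bears on its signal was not tested.

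Ligands and partners of Cspg4 and of Mcam were counted from 1 list of 19 genes, 19 of them tested. In KO cells TGF-β1 raised 9 and lowered 8, and in WT cells it raised 8 and lowered 6. Pdgfa, whose product forms a ligand that NG2 binds, rose by 1.57 ± 0.04 in KO cells and by 0.24 ± 0.04 in WT cells (interaction 1.33, adjusted p = 1.42e-10). The chains of collagen VI, another NG2 ligand, split: Col6a3 rose by 1.21 ± 0.06 in KO cells, whereas Col6a1 fell by 2.30 ± 0.04 and Col6a2 fell by 2.08 ± 0.05. In WT cells the difference was 0.00 ± 0.06 for Col6a3 (adjusted p = 0.965), while Col6a1 fell by 1.20 ± 0.04 and Col6a2 fell by 1.13 ± 0.05.

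Markers of other cells that make Cspg4 were read beside it. Of 13 smooth muscle markers, 10 rose and 2 fell in each genotype, where 46.6% (KO) and 41.3% (WT) of all genes rose. Their summed signal, on the linear scale, was 724673 to 812640 in treated and 122229 to 130645 in vehicle KO cells. It was 432840 to 462918 in treated and 108815 to 123383 in vehicle WT cells, and the sums are weighted toward the brightest probes. The interaction was called for 12 of the 13, positive for 10 (31.9% of all genes) and negative for 2 (26.5%). The response in KO minus that in WT cells was thus positive for most of these markers, as for Cspg4. Unlike Cspg4, whose WT difference was not called, most of them also rose in WT cells. All 4 glial and Schwann cell markers tested fell in KO and in WT cells, with sums of 2486 to 2706 in treated against 4682 to 4872 in vehicle KO cells and 4046 to 4201 in treated against 4874 to 5386 in vehicle WT cells. Of 6 mesothelial markers, 0 rose and 5 fell in KO cells, and 2 rose and 3 fell in WT cells. Their interaction was called for 1 in the positive and 4 in the negative direction. Their summed signal was 12609 to 14452 in treated against 26105 to 26560 in vehicle KO cells, and 25613 to 26670 in treated against 28862 to 30541 in vehicle WT cells. The part of smooth muscle, glial and mesothelial cells in the Cspg4 result and in the other differences between the genotypes was not tested.

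Abcc9 encodes the sulfonylurea receptor SUR2, the regulatory subunit of an ATP-sensitive potassium channel, and is among the more selective pericyte markers. Its promoter is shown because its fall was the largest of the 8 in both genotypes with the scaling used here. With normexp correction Notch3 fell slightly more in KO cells, at -1.29 against -1.23 for Abcc9. It lies at chr6:142702275-142702524 on the minus strand (RefSeq, GRCm38.p6, 250 bases before the start). Capitals mark 2 SMAD elements, CAGAC or GTCTG, and 1 run in which the RBPJ letters TGGGAA, the DNA-binding site of Notch signalling, overlap the TEAD letters GGAATG.
Abcc9: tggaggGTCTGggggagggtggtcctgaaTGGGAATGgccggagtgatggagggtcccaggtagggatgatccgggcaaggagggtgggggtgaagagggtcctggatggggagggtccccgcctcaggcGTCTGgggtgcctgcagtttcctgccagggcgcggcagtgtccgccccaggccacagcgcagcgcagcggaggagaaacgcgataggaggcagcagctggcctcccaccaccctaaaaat

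Abcc9 had log2 signals of 4.13, 3.95, 3.58 and 2.24 in TGF-β1-treated KO cells, against 7.11, 7.25, 7.07 and 6.95 in vehicle-treated KO cells. Only the first of those 4 treated arrays was well above background. WT signals were 5.45, 5.19, 5.57 and 5.11 with TGF-β1, against 7.15, 7.14, 7.24 and 7.32 with vehicle. The vehicle groups overlapped each other, treated WT cells lay below both, and treated KO cells lay lowest. The difference was -3.62 ± 0.29 in KO cells (adjusted p = 1.41e-08), and -1.88 ± 0.29 in WT cells (adjusted p = 3.87e-05). The interaction was -1.74 ± 0.41 (adjusted p = 0.00207). KO minus WT was -1.86 ± 0.29 under TGF-β1 (adjusted p = 4.03e-05) and -0.12 ± 0.29 under vehicle (adjusted p = 0.840). Sizes depend on the treated KO arrays near background. With dim values raised to each array's lowest signal well above background, an alternative chosen after seeing the data, the KO difference was -3.01 and the interaction -1.13. With normexp correction and its offset they were -1.23 and -0.24, and both passed the threshold under each of these settings.

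The channel pore that pairs with SUR2 is encoded by Kcnj8, another pericyte marker. Kcnj8 fell by 1.78 ± 0.06 in KO cells and by 0.60 ± 0.06 in WT cells, with an interaction of -1.18 ± 0.08 (adjusted p = 8.72e-09). Abcc9 and Kcnj8 thus fell in both genotypes, and each fell more in KO cells. Abcc8, the related receptor of pancreatic and neuronal channels, was not well above background on any treated array of either genotype, and Kcnj11 did not pass the filter on dim signals.

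Notch3 encodes the Notch receptor that mural cells use to receive ligands such as Jagged1 from neighbouring cells. It had log2 signals of 9.62, 9.67, 9.66 and 9.60 in TGF-β1-treated KO cells, against 10.98, 10.92, 11.05 and 10.91 in vehicle-treated KO cells. The signals in WT cells were 10.36, 10.39, 10.34 and 10.38 with TGF-β1, against 10.82, 10.81, 10.77 and 10.69 with vehicle. The 4 groups did not overlap: treated KO cells were lowest, then treated WT, vehicle WT and vehicle KO cells. The difference was -1.33 ± 0.04 in KO cells (adjusted p = 7.52e-14) and -0.40 ± 0.04 in WT cells (adjusted p = 2.57e-07). The interaction was -0.93 ± 0.05 (adjusted p = 2.23e-09). Under vehicle Notch3 was 0.19 ± 0.04 higher in KO than in WT cells (adjusted p = 0.00363). Under TGF-β1 it was lower in KO cells, at -0.73 ± 0.04 (adjusted p = 2.51e-10), so the order of the genotypes was opposite in the 2 treatments. Within each slide alone the vehicle difference did not pass, at 0.14 (adjusted p = 0.26) and 0.25 (adjusted p = 0.074). There, with 2 arrays per group, 1.28% and 6.81% of all genes passed.

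Of 29 other Notch pathway genes listed, 25 were tested, and TGF-β1 raised 8 and lowered 15 in KO cells and raised 5 and lowered 12 in WT cells. Under quantile normalization the KO split was 4 and 16. Jag1, the ligand Jagged1, rose by 1.92 ± 0.08 in KO cells, with -0.05 ± 0.08 in WT cells (interaction 1.98, adjusted p = 1.09e-09). Hes1, a general Notch target, rose by 1.78 ± 0.07 in KO and 0.32 ± 0.07 in WT cells. Heyl, a Notch3 target in mural cells, fell by 0.68 ± 0.07 in KO cells and by 2.56 ± 0.07 in WT cells (interaction 1.88, adjusted p = 1.04e-09). Heyl thus fell less, and Notch3 more, in KO than in WT cells. Psen2, a catalytic subunit of the protease that releases the Notch intracellular domain, fell by 1.49 ± 0.04 in KO cells and by 0.78 ± 0.04 in WT cells. Notch4, a receptor best known in endothelium, rose by 0.88 ± 0.07 in KO cells and fell by 0.23 ± 0.07 in WT cells.

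Mcam encodes an adhesion molecule of the immunoglobulin superfamily found on pericytes, smooth muscle and endothelium, where it binds laminins with the α4 chain. It had log2 signals of 14.23, 14.32, 14.34 and 14.31 in TGF-β1-treated KO cells, against 14.33, 14.28, 14.40 and 14.30 in vehicle-treated KO cells. In WT cells it had 14.28, 14.40, 14.38 and 14.45 with TGF-β1, against 14.25, 14.14, 14.26 and 14.26 with vehicle. These levels lay within a narrow band, and vehicle WT cells were at its lower end. The difference was -0.02 ± 0.04 in KO cells (adjusted p = 0.608), with a 95% interval of -0.12 to 0.07. In WT cells it was 0.15 ± 0.04 (adjusted p = 0.00808), but under quantile normalization the WT difference turned to -0.11 (adjusted p = 0.0095) and the KO difference to -0.50 (adjusted p = 2.1e-09). Quantile normalization moved the median response of all genes in KO cells to -0.01, against 0.10 with the scaling used here. No direction is therefore given for the Mcam response to TGF-β1. The interaction, -0.17 ± 0.06 (adjusted p = 0.0278), kept its sign under quantile normalization, at -0.39, but did not pass within either slide or when any 1 of 5 arrays was left out: KO TGF-β1 replicate 1, KO vehicle replicate 3, WT TGF-β1 replicates 2 and 4, and WT vehicle replicate 2.

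Lama4, the laminin α4 chain, fell by 0.52 ± 0.05 in KO cells and had a difference of -0.08 ± 0.05 in WT cells (adjusted p = 0.151). Lama5 fell by 0.69 ± 0.08 in KO cells and rose by 0.62 ± 0.08 in WT cells (interaction -1.30, adjusted p = 1.53e-07). Endothelial markers were read beside Mcam and Notch4. All 12 fell in KO cells and 11 of 12 in WT cells, where 35.9% and 27.3% of all genes fell. Their summed signals were 4450 to 4916 in treated against 10181 to 10503 in vehicle KO cells, and 6220 to 6714 in treated against 10913 to 11352 in vehicle WT cells. None of the 12 lacked signal in a whole group, and Mcam had no called difference in KO cells with the scaling used here. The part of endothelial cells in the Mcam signal was not tested.

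**Figure D2:**
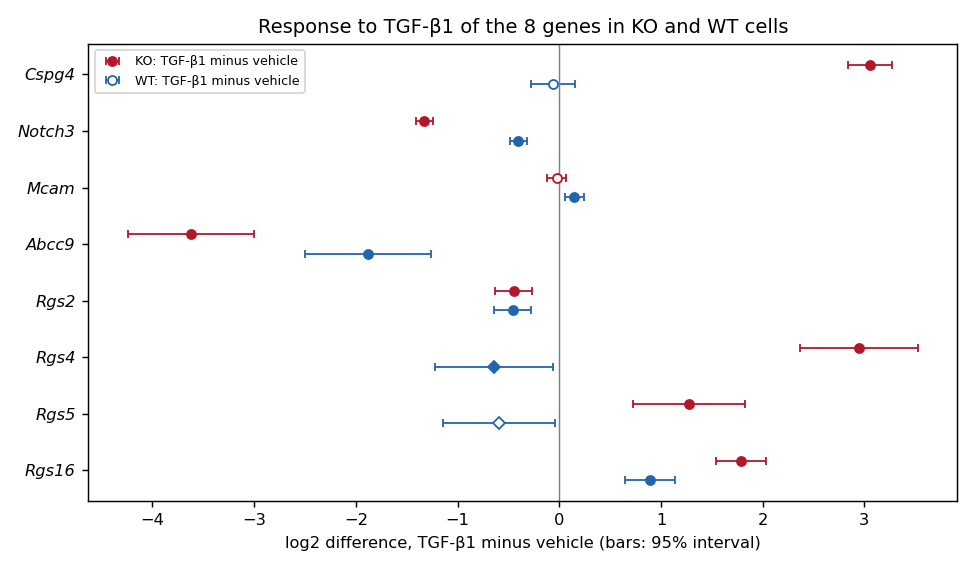
Log2 difference between TGF-β1 and vehicle (horizontal axis) for the 8 genes in KO (upper, red) and WT cells (lower, blue), with 95% intervals from the limma fit, n = 4 arrays per group. Filled symbols passed the threshold, and diamonds mark responses in which 1 of the groups was not well above background on any array. Intervals of KO and WT cells stand apart for Cspg4, Notch3, Abcc9, Rgs4, Rgs5 and Rgs16 and coincide for Rgs2.

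Rgs4 and Rgs5 are neighbours on chromosome 1 with 0 coding genes between them in the RefSeq order, and both encode R4 proteins that act on Gi and Gq subunits. Their promoters are shown together because the transcripts rose together in KO cells. The 250 bases before the start of Rgs4 lie at chr1:169747643-169747892 on the minus strand, and those of Rgs5 at chr1:169655251-169655500 on the plus strand (RefSeq, GRCm38.p6). Capitals mark the SMAD letters CAGAC or GTCTG, found 1 time for Rgs4 and 0 times for Rgs5.
Rgs4: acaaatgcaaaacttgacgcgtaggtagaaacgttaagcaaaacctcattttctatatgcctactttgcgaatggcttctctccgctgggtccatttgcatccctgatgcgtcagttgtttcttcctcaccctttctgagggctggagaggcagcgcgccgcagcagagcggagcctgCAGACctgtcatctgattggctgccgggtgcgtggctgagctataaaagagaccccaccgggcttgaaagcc
Rgs5: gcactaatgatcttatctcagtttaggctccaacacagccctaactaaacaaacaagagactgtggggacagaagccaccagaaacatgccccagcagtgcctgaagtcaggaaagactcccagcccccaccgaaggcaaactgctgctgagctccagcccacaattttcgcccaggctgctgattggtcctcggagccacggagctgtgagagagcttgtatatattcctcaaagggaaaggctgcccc

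Rgs4 had log2 signals of 6.58, 6.55, 6.58 and 6.23 in TGF-β1-treated KO cells, against 4.17, 2.98, 3.78 and 3.23 in vehicle-treated KO cells. WT signals were 2.51, 3.79, 3.43 and 2.99 with TGF-β1, against 3.86, 3.44, 4.10 and 3.90 with vehicle. It was well above background on 4 of 4 treated KO arrays, 2 of 4 vehicle KO arrays, 0 of 4 treated WT arrays and 3 of 4 vehicle WT arrays, so 3 of the groups sat at the edge of detection. Rgs4 passed the filter on dim signals only through treated KO cells. Its adjusted p-values for comparisons with that group are therefore descriptions only. In KO cells the rise was 2.94 ± 0.27 (adjusted p = 7.61e-08), 2.69 with dim values raised and 1.17 with normexp correction. Under TGF-β1 Rgs4 was at least 6.08-fold higher in KO than in WT cells (adjusted p = 4.39e-08). That bound sets the treated KO mean against the lowest signal well above background on each treated WT array, or the probe's own signal where that was higher. It is not a lower confidence limit, and with normexp correction the difference was 1.12 on the log2 scale. The interaction was 3.59 ± 0.38 (adjusted p = 1.60e-06), 2.68 with dim values raised and 1.11 with normexp correction.

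In WT cells the Rgs4 difference was -0.64 ± 0.27 with an adjusted p of 0.0477, the treated and vehicle arrays overlapped, and no bound above 1 could be given. It failed the threshold when any 1 of 11 arrays was left out, the 4 treated KO arrays, KO vehicle replicates 3 and 4, WT TGF-β1 replicates 1 and 4, and WT vehicle replicates 1, 3 and 4 (adjusted p up to 0.167). With slide as a block it did not pass either (adjusted p = 0.0562). Its sign turned with normexp correction, at 0.06, and with dim values raised, at 0.01. It is not counted on as a fall here.

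Rgs5 had log2 signals of 5.14, 5.15, 4.50 and 4.98 in TGF-β1-treated KO cells, against 3.41, 3.04, 4.39 and 3.84 in vehicle-treated KO cells. The signals in WT cells were 3.33, 3.54, 3.37 and 3.56 with TGF-β1, against 3.58, 3.86, 4.59 and 4.13 with vehicle. Its lowest treated KO array, replicate 3, lay just above the highest vehicle KO array, and the vehicle groups of both genotypes overlapped. The probe was well above background on 4, 2, 0 and 3 arrays of treated KO, vehicle KO, treated WT and vehicle WT cells. Rgs5 too passed the filter on dim signals only through treated KO cells. Its adjusted p-values for comparisons with that group are likewise descriptions only. The rise in KO cells was 1.27 ± 0.26 (adjusted p = 0.000314). Within the first slide it was 1.92 (adjusted p = 3.8e-05) and within the second 0.63 (adjusted p = 0.066). With dim values raised the rise was 1.01, and with normexp correction it was 0.48. By the bound described for Rgs4, Rgs5 was 2.09-fold higher in KO than in WT cells under TGF-β1. On the probe's own signals that difference was 1.49 ± 0.26 (adjusted p = 0.000104), with a 95% interval of 0.94 to 2.04. With normexp correction it was 0.47 on the log2 scale. In WT cells the difference was -0.59 ± 0.26 (adjusted p = 0.0529). It passed when any 1 of 4 arrays was left out: KO TGF-β1 replicate 3, KO vehicle replicates 2 and 3, and WT vehicle replicate 1. It also passed with slide as a block (adjusted p = 0.0425), within the second slide (adjusted p = 0.0259) and with the arrays of WT cells alone (adjusted p = 0.0201). The interaction was 1.86 ± 0.36 (adjusted p = 0.000470), 1.18 with dim values raised and 0.48 with normexp correction.

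Rgs16 encodes an R4 protein that acts on Gi and Gq subunits and on chemokine signalling. It had log2 signals of 11.39, 11.06, 11.64 and 11.26 in TGF-β1-treated KO cells, against 9.21, 9.68, 9.72 and 9.61 in vehicle-treated KO cells. In WT cells it had 11.06, 11.05, 11.05 and 10.998 with TGF-β1, against 10.28, 10.12, 10.14 and 10.05 with vehicle. Treated arrays of both genotypes stood above every vehicle array, and vehicle KO cells were lowest. TGF-β1 raised it by 1.79 ± 0.12 in KO cells (adjusted p = 1.14e-09) and by 0.89 ± 0.12 in WT cells (adjusted p = 6.90e-06). The interaction was 0.89 ± 0.16 (adjusted p = 0.000280), of which the difference under vehicle makes the larger part. Under vehicle KO minus WT was -0.59 ± 0.12 (adjusted p = 0.00352), -0.75 and -0.43 within the slides, where neither passed (1.28% and 6.81% of all genes did). Under TGF-β1 it was 0.30 ± 0.12 (adjusted p = 0.0315), with overlapping arrays. That last call was lost without any 1 of 5 arrays, KO TGF-β1 replicates 1 and 3 and WT TGF-β1 replicates 2, 3 and 4, and was 0.18 (adjusted p = 0.18) under quantile normalization.

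Rgs2 encodes an R4 protein with a preference for Gq, a brake on vasoconstrictor signals. It had log2 signals of 10.75, 10.60, 10.81 and 10.94 in TGF-β1-treated KO cells, against 11.24, 11.15, 11.23 and 11.28 in vehicle-treated KO cells. WT signals were 10.76, 10.87, 10.86 and 10.76 with TGF-β1, against 11.17, 11.04, 11.43 and 11.43 with vehicle. Treated arrays lay below vehicle arrays in both genotypes, and the genotypes overlapped in each treatment. Rgs2 fell by 0.45 ± 0.09 in KO cells (adjusted p = 0.000182) and by 0.46 ± 0.09 in WT cells (adjusted p = 0.000237). The interaction was 0.01 ± 0.12 (adjusted p = 0.965), with a 95% interval of -0.25 to 0.27, so a difference between the responses of up to about that size cannot be told from none at this number of arrays.

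Between genotypes, 2 of the 8 genes were called under vehicle, against 13.2% of all genes. Notch3 was higher (7.06% of all genes) and Rgs16 lower (6.16%) in KO cells, and neither passed within a slide. Within slides 1 and 2, with 2 arrays per group, 1.28% and 6.81% of all genes passed. Both Notch3 and Rgs16 had an unadjusted p under 0.05 on each slide. Under TGF-β1 6 of the 8 were called, against 70.2% of all genes. Cspg4, Rgs4, Rgs5 and Rgs16 were higher (39.7% of all genes) and Notch3 and Abcc9 lower (30.5%) in KO cells. At 2-fold or more 0 of the 8 were called under vehicle, against 0.312% of all genes, and 4 of the 8 under TGF-β1, against 10.3%, or 2, Cspg4 and Rgs4, with normexp correction. With signal required on all 16 arrays, which leaves 5 of the 8 genes, 1 reached 2-fold under TGF-β1, Cspg4. Counting groups whose arrays did not overlap gave 7 of 8 genes for the KO response, against 77.2% of all genes, and 6 of 8 for the WT response, against 63%. The same count was 3 of 8 for KO against WT under vehicle, where all genes gave 18.8%, and 5 of 8 under TGF-β1, where they gave 64.7%. The comparisons share arrays, so their counts are not independent of one another.

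The list of other RGS genes held 19, among them Rgs7bp and Rgs9bp, which encode proteins that bind RGS proteins. Of the 19, 13 were tested, Rgs7bp included, and Rgs6, Rgs7, Rgs8, Rgs13, Rgs22 and Rgs9bp were too dim. In KO cells 7 rose and 5 fell, and in WT cells 5 rose and 5 fell. Their median response was 0.40 in KO and 0.07 in WT cells. Rgs20, of the RZ branch, rose by 1.23 ± 0.09 in KO and 0.48 ± 0.09 in WT cells (interaction 0.75, adjusted p = 0.000223). Rgs3, another R4 gene, rose by 0.56 ± 0.05 in KO and 1.03 ± 0.05 in WT cells, with an interaction in the other direction (-0.47, adjusted p = 2.64e-05). Rgs18, made by platelets and myeloid cells, was not well above background on any treated KO array and was at least 6.69-fold lower there than in vehicle KO cells (adjusted p = 1.10e-10). It fell by 1.23 ± 0.21 in WT cells. Rgs14, whose product also binds Ras-family proteins, fell by 1.21 ± 0.06 in KO and by 0.54 ± 0.06 in WT cells. Rgs1, a leukocyte gene, fell by 1.50 ± 0.05 in KO and by 1.78 ± 0.05 in WT cells.

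**Figure D3:**
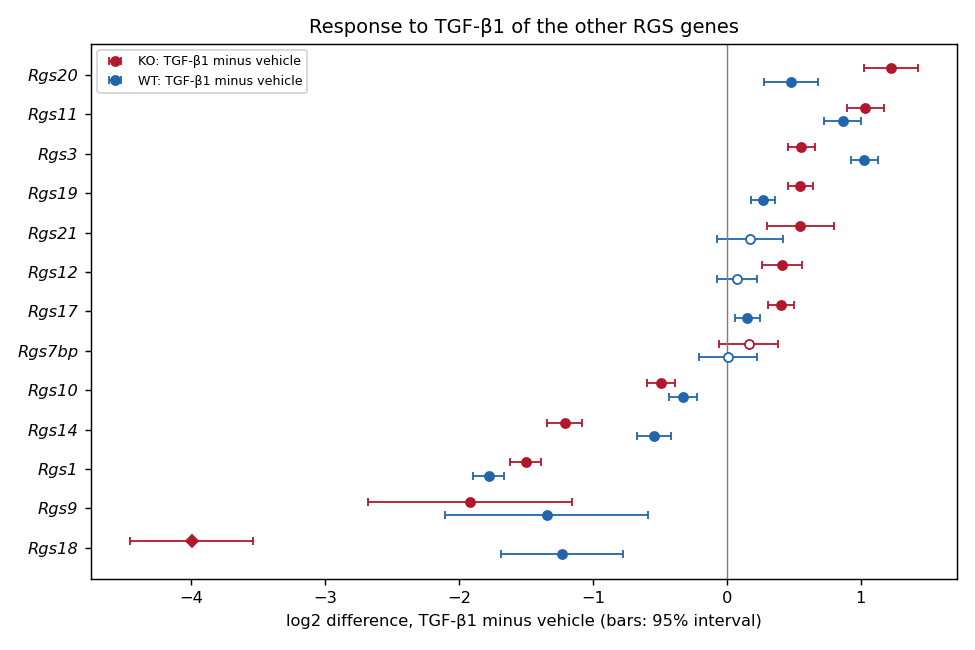
Log2 difference between TGF-β1 and vehicle (horizontal axis) for the 13 other RGS genes tested, ordered by the KO response, in KO (upper, red) and WT cells (lower, blue), with 95% intervals, n = 4 arrays per group. Rgs7bp, among the 13, encodes a protein that binds RGS proteins. Filled symbols passed the threshold and diamonds mark responses with 1 group not well above background on any array. Most pairs of intervals lie on the same side of 0, with Rgs20 highest and Rgs18 lowest in KO cells.

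Macrophage and leukocyte markers were read beside the RGS genes, since blood cells make several of them. Of 9 tested, 7 fell and 1 rose in KO cells and 7 fell in WT cells, where 35.9% and 27.3% of all genes fell. Under quantile normalization 7 of the markers fell and 0 rose in KO cells. Their summed signal was 50042 to 54858 in treated against 100365 to 104041 in vehicle KO cells, and 66564 to 71435 in treated against 120393 to 139729 in vehicle WT cells. None of the 9 lacked signal in a whole group. Rgs2, Rgs1 and Rgs18 fell with these markers in both genotypes, and Rgs16 rose in both. The part of macrophages in the RGS results was not tested.

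The α subunits on which RGS proteins act were 16 on the list and 13 tested. TGF-β1 raised 6 and lowered 4 in KO cells and raised 5 and lowered 6 in WT cells. Under quantile normalization the splits were 5 and 7 in KO cells and 2 and 7 in WT cells, and with normexp correction 8 and 3 and 5 and 2. The interaction passed for 6 in the positive and 1 in the negative direction, and for 5 and 2 under quantile normalization. Gna14 and Gna11 encode subunits of the Gq class. Gna14 rose by 0.96 ± 0.07 in KO cells, with -0.03 ± 0.07 in WT cells (interaction 0.98, adjusted p = 1.21e-06). Gna11 rose by 0.72 ± 0.03 in KO and 0.25 ± 0.03 in WT cells. Gnaq had -0.01 ± 0.04 in KO cells (adjusted p = 0.754) and fell by 0.35 ± 0.04 in WT cells.

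The other pericyte and mural markers were 27 on the list, of which 25 were tested and Vtn and Foxd1 were too dim. In KO cells TGF-β1 raised 11 and lowered 12, in WT cells it raised 10 and lowered 13, and the interaction was called for 7 in the positive and 10 in the negative direction. Postn, a matricellular protein, rose by 2.62 ± 0.06 in KO and 0.55 ± 0.06 in WT cells. Foxs1, a forkhead factor of perivascular cells, rose by 1.97 ± 0.05 in KO and 0.56 ± 0.05 in WT cells. In contrast, Anpep, an aminopeptidase of brain pericytes, fell by 3.93 ± 0.04 in KO and by 2.20 ± 0.04 in WT cells. Ednra, the endothelin A receptor, fell by 1.80 ± 0.05 in KO and by 0.58 ± 0.05 in WT cells. Pdgfrb, the receptor by which pericytes are recruited, rose by 0.30 ± 0.05 in KO cells, a sign that turned to -0.08 under quantile normalization, and by 0.42 ± 0.05 in WT cells (interaction -0.13, adjusted p = 0.130). The summed signal of the 25 genes was 60327 to 63118 in treated and 59824 to 61950 in vehicle KO cells, and 57807 to 60581 in treated and 60855 to 65946 in vehicle WT cells. The wider list was divided in direction, as were the markers among the 8 genes.

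**Figure D4:**
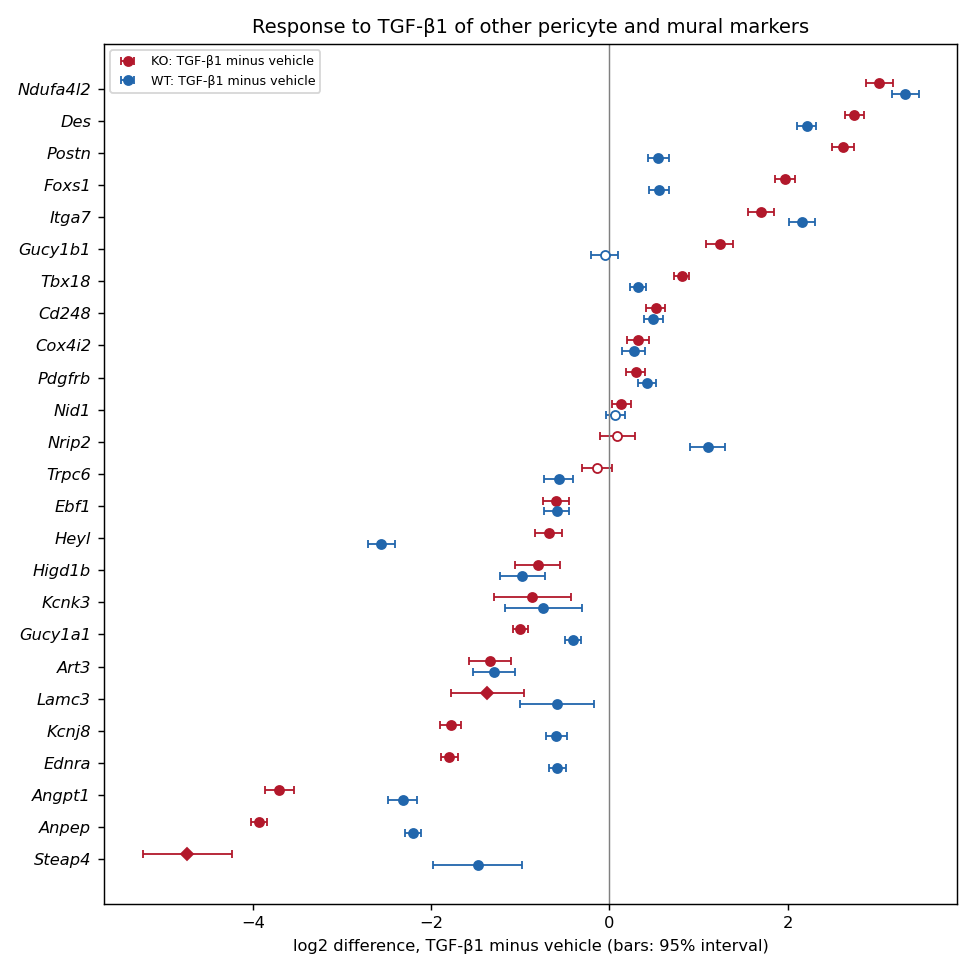
Log2 difference between TGF-β1 and vehicle (horizontal axis) for the 25 other pericyte and mural markers tested, ordered by the KO response, in KO (upper, red) and WT cells (lower, blue), with 95% intervals, n = 4 arrays per group. Filled symbols passed the threshold and diamonds mark responses with 1 group not well above background on any array. The markers run from rises such as Ndufa4l2, at 3.03 in KO and 3.32 in WT cells, to falls such as Anpep.

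The genes with the most similar pattern were named by Pearson correlation over the log2 values of the 16 arrays, which share the 4 groups, so the correlations mostly restate the group means. Closest to Cspg4 were Hbegf at r = 0.996, Esm1 at 0.996 and Prag1 at 0.995. Notch3 was closest to Ephx1 at 0.996, Saa1 at 0.995 and Mlana at 0.994. Abcc9 was closest to Esr1 at 0.987, Abcd2 at 0.986 and Eepd1 at 0.986. Closest to Rgs4 were Gna14, the Gq-class subunit above, at 0.967, Srpx2 at 0.966 and Nt5dc3 at 0.966. Rgs16 was closest to Aldh1a2 at 0.976, Gata2 at 0.975 and Chac1 at 0.974. Rgs2 was closest to Csf1r, the receptor that marks macrophages, at 0.962, then Gnptg at 0.958 and Dppa5a at 0.951. The remaining pair had lower values, at most 0.928 for Rgs5 with Sgpl1 and 0.896 for Mcam with Ms4a4c.

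Promoters of the 8 genes were searched over the 250 bases before the start, on both strands, for CAGAC (SMAD), TGANTCA (AP-1), TGGGAA (RBPJ), GGAATG (TEAD) and the CArG box of serum response factor. CAGAC was found in 6 of 8, 3 times in Cspg4, 2 times each in Notch3, Abcc9 and Rgs16, and 1 time each in Rgs2 and Rgs4. In 32851 RefSeq promoters of the same length 42.2% held it. Genes with and without it, and with rises and falls, were found among the 8: Notch3 and Abcc9 fell and hold it, and Rgs5 rose in KO cells and does not. TGGGAA and GGAATG were found in 1 of 8, Abcc9, where 21.6% and 12.6% of promoters held them. TGANTCA and the CArG box were found in 0 of 8, where 6.75% and 1.47% of promoters held them. These letter matches describe the windows alone.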

How the data were processed

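Each of 16 RNA samples was hybridised to 1 single-colour Agilent array. The authors deposited scanner files with spot intensity made by Feature Extraction 11.0.1.1, already background-subtracted, per the file headers. They also deposited a log2 value table of 9933 probes, whose normalization and selection of probes are not given in the sources used here. Its columns correlated with the log2 intensities with a lowest r of 0.999 on 9922 matched probes, and their medians were 6.38 to 6.39 (KO TGF-β1), 6.57 to 6.59 (KO vehicle), 6.47 to 6.49 (WT TGF-β1) and 6.60 to 6.61 (WT vehicle). It served as an alternative.

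From the scanner files, spots of a probe were averaged, log2 intensity was shifted to each array's 75th percentile over probes, and a probe was kept if some group had it well above background on each of its 4 arrays (33889 of 56605, 27 probes left out for outlier marks). Transcripts were named through the RefSeq gene table, and the brightest probe stood for a gene. limma 3.58.1 in R 4.3.3 was fitted with 1 coefficient per group, 2-sided, and p-values were adjusted over 15395 genes in each of 5 comparisons. For a gene not well above background in a whole group, folds are given as bounds only, which are not lower confidence limits. Its log2 differences with that group, and their SE, rest on signals near background. The code was tested on simulated data.

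Genes named outside the 8 were, for each list, up to 6 with the smallest adjusted p for the interaction or for the comparison described, other listed genes as values, and the 3 most correlated genes. The 8 genes and all lists were chosen with earlier results of these data known. Precision is limited by the number of arrays, and p-values measure the spread between the samples the labels call independent experiments.

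Alternatives were normexp correction (offset 50), quantile normalization, the authors' table, 2 other filters, the mean over probes, slide and replicate blocks, each slide alone, the compared groups alone, each array left out and, added after seeing the data, dim values raised. Of the glial and Schwann cell list, 1 gene is not reported here and was left out of its counts and sums.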

Additional observations from a re-analysis of the deposited data

Results flagged for a closer look

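The response to TGF-β1 differed between KO and WT cells by the interaction test for 7 of the 8 genes, against 58.3% of all genes tested. KO response minus WT response was 3.11 for Cspg4, 3.59 for Rgs4, 1.86 for Rgs5, 0.89 for Rgs16, -0.93 for Notch3, -1.74 for Abcc9 and -0.17 for Mcam, on the log2 scale. With normexp correction the values for 3 genes with arrays near background were smaller, at 1.11 for Rgs4, 0.48 for Rgs5 and -0.24 for Abcc9. The Mcam value did not pass within either slide. Rgs4 and Rgs5 passed the filter on dim signals only through treated KO cells, the group where they are high.

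Of 32 sets of 4 arrays, 1 for each gene and group, 2 held an array far from the other 3 by Dixon's criterion, and chance gives about 1 in 20. Mcam in WT vehicle replicate 2 was at 14.14, below the other 3, and its gap to the nearest was 0.925 of the range of the group. Rgs4 in KO TGF-β1 replicate 4 was at 6.23, below the other 3, with a gap of 0.892 of the range.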

How the results depend on the processing

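Of 28 calls among 40 comparisons of a single gene, 21 kept their direction and their side of the threshold under every alternative that could be fitted. Numbers of genes called, of 8, with 1 array left out were 7 to 7 for the KO response, 5 to 7 for the WT response, 2 to 2 for KO against WT under vehicle, 5 to 7 under TGF-β1 and 6 to 7 for the interaction. With all arrays, 82.6%, 68.6%, 13.2%, 70.2% and 58.3% of all genes were called in these comparisons. The authors' deposited table, which holds 6 of the 8 genes, gave 3 for the WT response, against 83.2% of its own 5257 genes. Its median KO response over those genes was -0.36. Requiring signal on all 16 arrays leaves 5 of the 8 genes, by construction, and gave 4 for the KO response, 3 for KO against WT under TGF-β1 and 4 for the interaction. The shares of all genes called under that filter were 83.6%, 72.2% and 60.5%. Within slide 1 and within slide 2, KO against WT under vehicle gave 0 in the limma fit, from 2 arrays per group, and 4 and 3 at an unadjusted p under 0.05, Notch3 and Rgs16 among them on both slides. In those limma fits 1.28% and 6.81% of all genes passed.

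Signs turned mostly for values near 0. The WT response of Cspg4 became 0.00445 with normexp, 0.0538 with quantile normalization, 0.0538 in the authors' table and 0.0465 within slide 2. That of Rgs4 became 0.0576 with normexp and 0.0128 with dim values raised, and that of Mcam became -0.109 with quantile normalization, the 1 reversal among the 8 genes that passed the threshold both ways. Among genes of the other lists, 7 passed with opposite signs. Under quantile normalization Nid1 turned to -0.29, Gnai2 to -0.26, Gnas to -0.16 and Adam10 to -0.15 in the KO response, Gnas to -0.11 in the WT response and Col1a1 to -0.09 between genotypes under TGF-β1. Abcc8 turned to 0.15 with normexp in the KO response, and Pard3 to 0.62 under TGF-β1 and 0.48 in the interaction in the authors' table. Under vehicle, Rgs4 became 0.00887 with normexp, Abcc9 0.0358 within slide 1, and Rgs2 0.0910 within slide 1 and -0.121 to 0.0106 with 1 array left out (positive without WT vehicle replicate 3 or 4). Rgs2 under TGF-β1 became 0.0628 within slide 2 and -0.0919 to 0.0201 with 1 array left out (positive without KO TGF-β1 replicate 2). The Rgs2 interaction became -0.0143 with normexp, -0.0769 with quantile normalization, -0.229 within slide 1 and -0.0481 to 0.0839 with 1 array left out, negative for 7 of 16 arrays. The cause was not tested. The replicate numbers were not taken to pair the samples: 9 of 24 same-numbered pairs correlated above 0.1 in their deviations from the group means (-0.03 to 0.22, 22 of them positive). KO vehicle with WT TGF-β1 was the exception, with 4 of 4 above 0.1. With the replicate block the counts were 7, 5, 2, 6 and 7. The shares of all genes called there were 83.5%, 70.1%, 14.9%, 71.9% and 60.5%. The Rgs4 response of WT cells no longer passed with that block (adjusted p = 0.0609). The replicate block changed no other call among the 8. With slide as a block, the Rgs4 response of WT cells no longer passed and that of Rgs5 did. Signals near background limit Abcc9 in treated KO cells and Rgs4 and Rgs5 outside treated KO cells.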
